A study of Mus musculus with 3 samples.

Results

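The genes of elastin and of the proteins that scaffold, assemble and cross-link elastic fibres were followed in cultured mouse dermal fibroblasts of 3 Fgfr3 genotypes. The set was named gene by gene, as Eln, Fbn1, Fbn2, Mfap2, Mfap5, Fbln1, Fbln2, Fbln5, Loxl1 and Efemp2, and all probe sets annotated to exactly 1 of these symbols were taken. Of the 10 genes, 7 were measured, on 10 probe sets, out of 7842 named genes on the array. Fbn1, Fbln5 and Efemp2 were not analysed here. FGFR3Act cells came from Fgfr3G374Rneo- mice, whose receptor carries the G374R change and is active without ligand. FGFR3KO cells came from FGFR3G374Rneo+ mice, which carry the same altered allele with the neo cassette and make no functional receptor. Wild-type Bl6 mice gave the FGFR3WT cells. The cells were grown in fibroblast growth medium without treatment. For the mice's sex and age, and for passages, the sources used here give nothing.

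Elastic fibres give skin, lung and arteries their recoil. Their core is elastin, made from the soluble monomer tropoelastin, and the core is laid down on a scaffold of microfibrils built from fibrillins and decorated with microfibril-associated glycoproteins. Fibulins help to bring tropoelastin to the scaffold, and enzymes of the lysyl oxidase family cross-link it into an insoluble polymer. Dermal fibroblasts are the main source of these proteins in skin.

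Each genotype had 1 array column of MAS5 signals, which are linear probe set intensities. The series states n = 3 for all groups, so a column may stand for 1 culture, a pool or a mean, and no spread between replicates could be computed. Every difference below is therefore one between arrays, with no test. For no gene can any of the genotypes be said to differ beyond a replicate spread. Signals under the 40th percentile of an array (123 on FGFR3Act, 122 on FGFR3KO and 121 on FGFR3WT) were raised to that floor before log2 was taken. A fold against an array below the floor is given as "at least". Genes that lay 2-fold or more apart between 2 arrays were counted to describe size.

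The labelled cell type was checked against marker genes. Of 14 dermal fibroblast markers measured, 13 were above the floor on each array, with Prrx1 below it on all of them. Their summed signal was 52911 on FGFR3Act, 75047 on FGFR3KO and 55482 on FGFR3WT. Of 14 macrophage and leukocyte markers, FGFR3Act had 12 above its floor, FGFR3KO had 2 and FGFR3WT had 1, and the summed signals were 37226, 1405 and 1215 in the same order. Ptprc and Itgam were below the floor on every array. The smooth muscle markers Acta2, Tagln and Cnn1 were above the floor on each array and Myh11 on FGFR3KO alone, with summed signals of the 6 measured smooth muscle markers of 16817.5, 27097 and 15226 in that order. Of the keratinocyte, endothelial and melanocyte markers, Krt1 and Dct were slightly above the floor on FGFR3KO and all others were below it on every array.

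Elastin and 2 genes of its scaffold, Mfap2 and Fbn2, were far lower on FGFR3Act than on FGFR3WT, while the fibulin genes Fbln1 and Fbln2 were close to it. On FGFR3KO, elastin and the microfibril glycoprotein genes were close to FGFR3WT. Fbn2 and the fibulin genes were higher there, Fbln2 by only 0.10 in log2 after quantile normalisation, and the cross-linking enzyme gene Loxl1 was lower. The set thus did not move as 1 block in either mutant, and the genes are described below in the order of their roles.

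**Figure D1:**
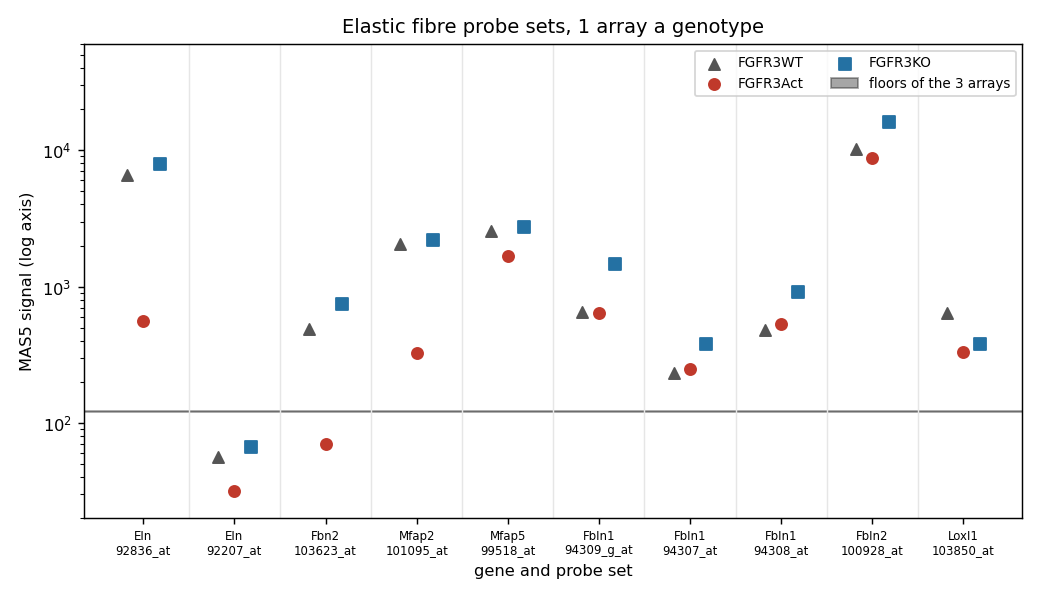
MAS5 signal (log axis) of the 10 probe sets of the 7 measured elastic fibre genes on the FGFR3WT, FGFR3Act and FGFR3KO arrays, 1 point an array, with the floors of the 3 arrays as a horizontal band. The bright Eln probe set lies at 556 on FGFR3Act against 6604 on FGFR3WT and 7902 on FGFR3KO, while all 3 Fbln1 probe sets are highest on FGFR3KO.

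Elastin itself (Eln, the tropoelastin gene) was represented by 2 probe sets. The brighter, 92836_at, had a signal of 6604 on FGFR3WT, 556 on FGFR3Act and 7902 on FGFR3KO. FGFR3Act alone was low, and the other 2 arrays lay within 1.20-fold of each other. The fold was 11.9 below FGFR3WT (log2 difference -3.57) and 14.2 below FGFR3KO (log2 difference -3.83). The second probe set, 92207_at, was below the floor on every array, at 31.8 on FGFR3Act, 66.7 on FGFR3KO and 56.8 on FGFR3WT. Values that low have no order here, so this probe set gives no second reading of the Eln difference. With the log2 signals of both probe sets averaged, the dim one raised to the floor, the Eln difference was -1.77 against FGFR3WT and -1.91 against FGFR3KO.

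The place of elastin within each array shows the same contrast without any comparison of scale between arrays. The bright Eln probe set ranked 136 from the top of the 9871 non-control probe sets on FGFR3WT and 158 on FGFR3KO. On FGFR3Act it ranked 2932, at the 70.3 percentile of the array. Among the 5244 genes compared between FGFR3Act and FGFR3WT it had the lowest difference, and it ranked 2 from the lowest of the 5297 compared between FGFR3Act and FGFR3KO. With the floor at the 20th percentile or an offset in its place it ranked 3 from the lowest against FGFR3WT, and with the mean over probe sets 27, and it was lowest under each of the other settings tried. Against FGFR3KO it ranked 3 and 1 with the floor at the 20th and 60th percentiles, 5 with the offset and 51 with the mean over probe sets.

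The microfibril scaffold was represented by a fibrillin gene and 2 glycoprotein genes. Mfap2, which encodes the microfibril-associated glycoprotein MAGP1, had a signal of 2065 on FGFR3WT, 327 on FGFR3Act and 2195 on FGFR3KO. As for elastin, FGFR3Act alone was low, by 6.31-fold against FGFR3WT and 6.70-fold against FGFR3KO (log2 differences -2.66 and -2.74). Mfap2 ranked 9 from the lowest of all genes compared in both of these pairs. Mfap5, which encodes the related glycoprotein MAGP2, had a signal of 2545 on FGFR3WT, 1679 on FGFR3Act and 2723 on FGFR3KO. The lowest array was again FGFR3Act, but the step was smaller, 1.52-fold below FGFR3WT and 1.62-fold below FGFR3KO (log2 differences -0.60 and -0.70). These 2 related genes were thus both lowest on FGFR3Act and differed in the size of the step.

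Fbn2, the gene of the fibrillin best known from developing tissue, had a signal of 493 on FGFR3WT, 70.3 on FGFR3Act and 743 on FGFR3KO. It was below the floor on FGFR3Act, so its difference there is a bound, at least 4.02-fold below FGFR3WT and at least 6.06-fold below FGFR3KO (log2 differences -2.01 and -2.60). A floor at the 60th percentile left a bound of -0.56 against FGFR3WT, and one at the 20th percentile kept the full difference of -2.81. On FGFR3KO it was 1.51-fold higher than on FGFR3WT (log2 difference 0.59).

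The promoters of Mfap2, lower on FGFR3Act, and of Fbln1, higher on FGFR3KO, are shown as a pair of members with different patterns whose windows end just before the outermost start of the gene. Of the 7 measured genes, 3 (Mfap2, Fbln1 and Fbln2) were matched in RefSeq promoter windows of build GRCm38.p6. The Mfap2 window is chr4:141010174-141010423 and the Fbln1 window chr15:85205699-85205948, both on the + strand, 250 bases each, with no other gene in the RefSeq table overlapping them. Capitals mark CpG dinucleotides.
Mfap2: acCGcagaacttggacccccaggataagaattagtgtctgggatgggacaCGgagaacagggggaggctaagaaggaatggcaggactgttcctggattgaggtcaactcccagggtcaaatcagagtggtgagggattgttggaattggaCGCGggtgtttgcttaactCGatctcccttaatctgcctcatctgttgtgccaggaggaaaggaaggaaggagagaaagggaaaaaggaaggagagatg
Fbln1: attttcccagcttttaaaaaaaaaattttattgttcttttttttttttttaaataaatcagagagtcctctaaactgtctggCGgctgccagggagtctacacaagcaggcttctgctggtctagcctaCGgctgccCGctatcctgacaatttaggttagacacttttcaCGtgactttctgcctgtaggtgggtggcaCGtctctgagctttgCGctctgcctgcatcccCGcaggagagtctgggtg
The Mfap2 window holds 5 CpG and has a GC content of 51.2%, and the Fbln1 window holds 7 and has 46.4%, against medians of 6 and 52.4% over all 32851 windows. The letters TGANTCA (the AP-1 motif), GGGCGG (the GC box) and TATAAA (the TATA box) were searched on both strands, with no overlap between matches of different motifs. None was in either printed window. Over all windows 6.75% hold the AP-1 letters, 32.7% the GC box letters and 12.4% the TATA box letters. The window before the other listed Mfap2 start, which lies 257 bases inside the gene, holds 2 GC box matches and 18 CpG. That before the other listed Fbln1 start, 59 bases inside, holds 1 GC box match and 14 CpG. A match is a description of the letters and not of a site in use.

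The fibulins were represented by Fbln1 and Fbln2, which encode calcium-binding glycoproteins found in elastic fibres and basement membranes. Fbln2 was among the brightest probe sets of every array, with a signal of 10144 on FGFR3WT, 8791 on FGFR3Act and 16021 on FGFR3KO. FGFR3KO was the high array, 1.58-fold above FGFR3WT, and FGFR3Act was 1.15-fold below FGFR3WT (log2 differences 0.66 and -0.21). After quantile normalisation, which pulls the brightest probe sets of the arrays together, the FGFR3KO difference was 0.10.

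Fbln1 was represented by 3 probe sets. The brightest, 94309_g_at, had a signal of 657 on FGFR3WT, 645 on FGFR3Act and 1469 on FGFR3KO, a second, 94308_at, had 479, 537 and 919, and the third, 94307_at, had 234, 249.8 and 379. All 3 were highest on FGFR3KO, by 2.24-fold, 1.92-fold and 1.62-fold against FGFR3WT. The brightest was 1.02-fold lower on FGFR3Act than on FGFR3WT, and the other 2 were 1.12-fold and 1.07-fold higher. The sign of this small difference was positive after quantile normalisation (0.08), after cyclic loess (0.11), with the mean over probe sets (0.08) and relative to the dermal fibroblast markers (0.13). With the mean over the 3 probe sets, Fbln1 on FGFR3KO was below the 2-fold size against FGFR3WT, at a log2 difference of 0.93.

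Loxl1, which encodes a lysyl oxidase-like enzyme that cross-links elastin, had a signal of 636 on FGFR3WT, 332 on FGFR3Act and 381 on FGFR3KO. Both mutant arrays were below FGFR3WT, FGFR3Act by 1.91-fold and FGFR3KO by 1.67-fold (log2 differences -0.94 and -0.74). No other member had both mutant arrays below FGFR3WT, apart from Eln after quantile normalisation. Both mutants share the same FGFR3WT array in these values. Between the mutants the difference was -0.20.

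Across the set, 3 of the 7 genes (Eln, Mfap2 and Fbn2) lay 2-fold or more below FGFR3WT on FGFR3Act and 0 lay 2-fold or more above it. The background over all 5244 genes was 4.79% below and 4.14% above by that size. The median of the 7 log2 differences was -0.94, against -0.07 for all genes. All 7 values were below 0, where 55.7% of all genes were. The same array held the macrophage and leukocyte markers, 12 of 12 compared lying 2-fold or more above FGFR3WT. Of these 12, 11 were below the floor on FGFR3WT and entered through FGFR3Act alone, so that their median log2 difference of 3.51 is one of bounds (4.92 with the offset). The 13 compared dermal fibroblast markers had a median of -0.15, which was -0.48 after quantile normalisation and -0.42 after cyclic loess or with the mean over probe sets. In RNA from a whole culture, fewer cells of a type and less RNA per cell cannot be told apart. Taken relative to the fibroblast marker median of -0.15, the log2 differences were -3.42 for Eln, -2.50 for Mfap2 and -1.85 for Fbn2, the last a bound, and the count 2-fold or more below was still 3. That setting was chosen after seeing the data. It subtracts the same constant from every gene, too small to bring any of the 3 within 2-fold, so it could not change the count. The part of macrophage RNA in the Eln, Mfap2 and Fbn2 values was not tested.

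In FGFR3KO against FGFR3WT, 1 of the 7 genes (Fbln1) lay 2-fold or more above FGFR3WT and 0 lay 2-fold or more below. The background over 5184 genes was 1.93% above and 3.61% below by that size. The median of the 7 was 0.26, against -0.02 for all genes, with 6 above 0 and Loxl1 below. Elastin was 1.20-fold higher on FGFR3KO, but after quantile normalisation its difference was -0.09, so it has no settled direction here. Mfap2 was 1.06-fold and Mfap5 1.07-fold higher. On the same array the 4 compared smooth muscle markers had a median of 1.08, with 2 of them 2-fold or more above FGFR3WT. Of these, Myh11 entered through FGFR3KO alone and its value is a bound. With both arrays required above the floor the smooth muscle median was 0.77 over 3 genes, 1 of them 2-fold higher. The fibroblast markers had a median of -0.08 (0.06 and 0.32 with the floor at the 20th and 60th percentiles). The 2 compared macrophage markers, 1 of them a bound, had a median of 0.17. The part of the smooth muscle markers in the fibulin values was not tested.

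In FGFR3Act against FGFR3KO, 4 of the 7 genes (Eln, Mfap2, Fbn2 and Fbln1) lay 2-fold or more below FGFR3KO and 0 lay 2-fold or more above. The background over 5297 genes was 7.49% below and 8.33% above by that size. The median of the 7 was -1.19, against -0.05 for all genes. Fbln1 was 2.28-fold lower on FGFR3Act by its brightest probe set and 1.71-fold and 1.52-fold by the others, and Fbln2 was 1.82-fold lower. In the same pair the 12 compared macrophage markers had a median of 3.50, with 10 values being bounds and 11 of the genes 2-fold or more higher on FGFR3Act. The 4 compared smooth muscle markers had a median of -1.08, with 2 of them 2-fold or more lower. Of these, the value of Myh11 is a bound. With both arrays required above the floor the smooth muscle median was -0.56 over 3 genes, 1 of them 2-fold lower. The 13 fibroblast markers had a median of -0.42, with 10 lower. Relative to the fibroblast markers, 3 members in place of 4 lay 2-fold or more below FGFR3KO, Fbln1 being at -0.76. The part of these cell type markers in the members' values was not tested. This pair shares an array with each of the pairs above and adds no separate sample.

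**Figure D2:**
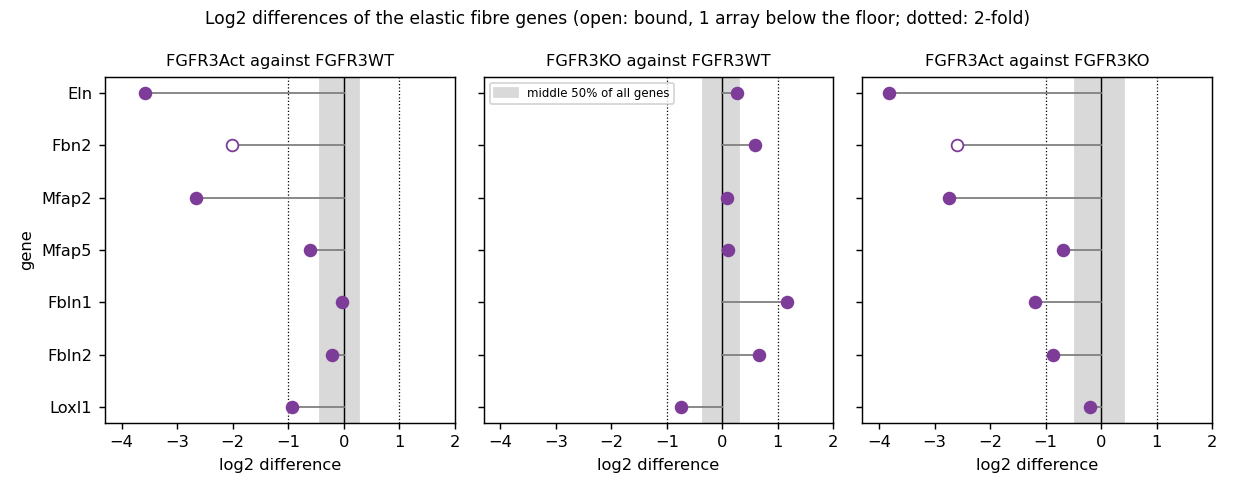
Log2 difference of the 7 elastic fibre genes in the 3 pairs of arrays, with the middle 50% of all compared genes shaded, 2-fold dotted and open points for bounds. Eln, Mfap2 and Fbn2 lie beyond 2-fold lower in both pairs with FGFR3Act, and Fbln1 alone lies beyond 2-fold higher on FGFR3KO.

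**Figure D3:**
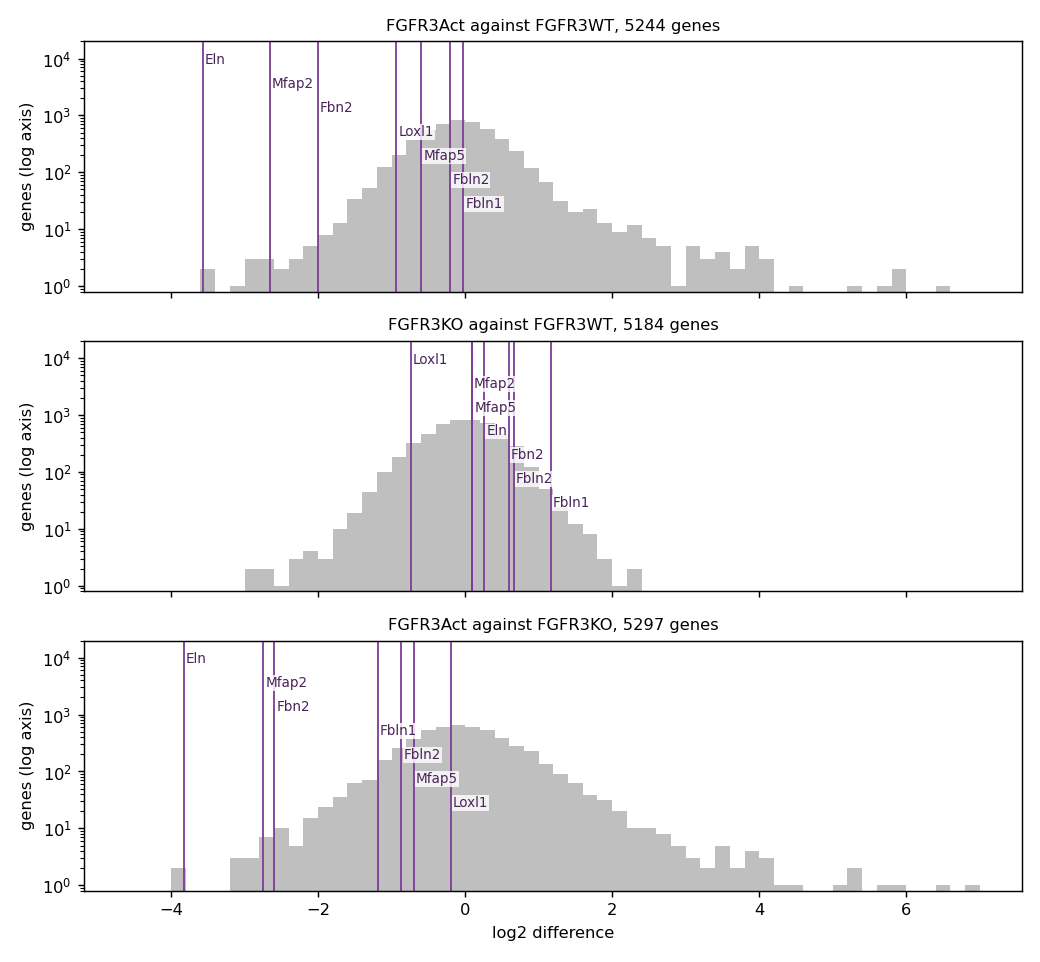
Histograms of the log2 difference of all compared genes (number of genes, log axis) in the 3 pairs of arrays, with each elastic fibre gene as a vertical line. Eln lies at the lower end of 5244 genes in FGFR3Act against FGFR3WT, at -3.57, and inside the bulk in FGFR3KO against FGFR3WT, at 0.26.

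Elastin was then set against each of its partners by the difference of their log2 differences, a quantity in which any scale factor of an array cancels. Between FGFR3Act and FGFR3WT, the log2 difference of elastin minus the median of the other 6 was -2.80. It differed from Mfap2 by 1.88-fold. Elastin lay at most 2.95-fold further below FGFR3WT than Fbn2 did, a limit set by the floor, with none in the other direction. Mfap2 and Fbn2 therefore have no order of nearness to elastin. Elastin stood 6.20-fold apart from Loxl1, 7.83-fold from Mfap5, 10.3-fold from Fbln2 and 11.7-fold from Fbln1. Between FGFR3KO and FGFR3WT, elastin differed from the median of the other 6 by -0.09, and from Mfap2 and Mfap5 by 1.13-fold and 1.12-fold. There the value of Fbln1 lay 1.87-fold above that of elastin, and elastin exceeded Loxl1 by a log2 difference of 0.998. With the mean over probe sets, the gap between elastin and the median of the others on FGFR3Act was -1.01.

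The genes whose pattern lay nearest to that of elastin were found by the distance over the 2 log2 differences from FGFR3WT, among 4729 other genes above the floor on FGFR3WT and FGFR3KO. The points are 3 arrays, and a small distance says nothing of shared function or control. The nearest was the imprinted gene Mest, at a distance of 0.60, whose signal was 341 on FGFR3Act against 2696 on FGFR3KO and 3101 on FGFR3WT. Next was Fmod, which encodes a collagen-binding proteoglycan, at 0.61, with signals of 308, 2579 and 2439.7 in the same order. Mfap2 was the third, at 0.93. Fndc1 followed at 0.93 and the LIM protein gene Csrp2 at 1.04, the latter below the floor on FGFR3Act. Genes below the floor on FGFR3Act entered with a bound, so their own places are not known and the ranks of the others depend on the floor. Fbn2 is among them and is given no rank. Loxl1 ranked 427, Mfap5 682, Fbln2 1906 and Fbln1 2921.

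Other genes of elastic fibres and microfibrils did not share the elastin pattern as a list. Of 27 listed, 9 were measured and compared, with a median log2 difference of 0.16 on FGFR3Act against FGFR3WT. By 2-fold or more, 4.14% of all genes lay above FGFR3WT and 4.79% below, and of these 9, 0 lay above and 1 below. The 1 was Vcan, the gene of the proteoglycan versican, whose signal was 579.5 on FGFR3Act against 3857 on FGFR3KO and 1668 on FGFR3WT, 2.88-fold below FGFR3WT on FGFR3Act. It was also the 1 gene of the list 2-fold or more above FGFR3WT on FGFR3KO, by 2.31-fold, where the list median was 0.17. Of all genes, 1.93% lay above FGFR3WT on FGFR3KO by that size. Lox, the main lysyl oxidase gene of fibroblasts, had signals of 8348 on FGFR3Act against 6219 and 6178 on FGFR3KO and FGFR3WT, so that it was 1.35-fold above FGFR3WT on FGFR3Act, where its relative Loxl1 was lower. Among the latent TGF-beta binding protein genes, which belong to the fibrillin family, Ltbp2 was 1.75-fold and Ltbp4 1.42-fold lower on FGFR3Act, and Ltbp1 was 1.45-fold higher. Ltbp3 was 1.05-fold lower, and slightly higher after quantile normalisation (0.04) and cyclic loess (0.08). The small proteoglycan genes Bgn and Dcn were 1.43-fold and 1.40-fold higher.

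Fibrous collagens served as a comparison within the matrix. Of 10 compared, 3 lay 2-fold or more below FGFR3WT on FGFR3Act and 0 above by that size. Of all genes, 4.79% lay below and 4.14% above by that size. The collagen count below was 4 after quantile normalisation and cyclic loess. It was 5 with the mean over probe sets and 2 relative to the fibroblast markers. The median log2 difference was -0.61, and -0.89 with the mean over probe sets, against -0.94 for the elastic fibre genes in both settings. By the probe sets shown, Col6a2 was furthest below, at 3.85-fold, less far than Eln and Mfap2. The 2 probe sets of the type I and type III collagen genes disagreed in size. The brighter Col1a1 probe set was 1.08-fold lower on FGFR3Act, with signals of 7845, 12570 and 8475 in the order FGFR3Act, FGFR3KO, FGFR3WT. The other had 1251, 9553 and 9602 in that order and was 7.67-fold lower. The brighter Col3a1 probe set was 1.94-fold lower and the other, at 193, 958 and 1748, was 9.04-fold lower. By these second probe sets, Col1a1 and Col3a1 lay closer to the elastin value than Mfap2 did, so the gap between elastin and the collagens depends on the probe set read. On FGFR3KO the 12 compared had a median of 0.31, and 0 lay beyond 2-fold in either direction. Of all genes, 1.93% lay above FGFR3WT and 3.61% below by that size. Col12a1, Col14a1 and Col15a1, 3 of the 12, entered through FGFR3KO alone and their values are bounds. The median was 0.06 after quantile normalisation, with 7 higher and 5 lower, and 0.20 after cyclic loess.

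Enzymes that degrade elastin were measured on the same arrays. Of 10, 6 exceeded the floor on FGFR3Act and 3 on each of the other arrays. Of the 6 compared with FGFR3WT, 2 lay 2-fold or more above it on FGFR3Act and 0 below by that size. Of all genes, 4.14% lay above and 4.79% below by that size. The median log2 difference of the 6 was 0.75. Mmp9, Mmp12 and Ctss, 3 of the 6, entered through FGFR3Act alone, and their values are bounds. The median was 1.98 with the offset, and with both arrays required above the floor it was 0.48 over 3 genes, 0 of them 2-fold higher. The 2 beyond 2-fold were the macrophage elastase gene Mmp12 (5036 on FGFR3Act against 29.9 on FGFR3KO and 31.5 on FGFR3WT) and the cathepsin gene Ctss (11427 against 25.7 and 31.6), both below the floor on the latter arrays. The gelatinase gene Mmp9, at 213 on FGFR3Act, 11.4 on FGFR3WT and 29.2 on FGFR3KO, was at least 1.76-fold higher than on FGFR3WT. Ctss is also on the macrophage marker list, whose summed signal was 37226 on FGFR3Act against 1215 on FGFR3WT, and the part of macrophage RNA in these values was not tested. The cathepsin genes Ctsl and Ctsk were 1.62-fold and 1.39-fold higher and the membrane-type protease gene Mmp14 was 1.71-fold lower. Of 5 protease inhibitor genes, Slpi was 2.77-fold lower on FGFR3Act and the other 4 were higher, Timp1 by 1.72-fold, with a list median of 0.46. On FGFR3KO the inhibitor median was 0.61, with Timp2 2.42-fold lower.

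Genes of proteins that bind elastic fibres at the cell surface were less far apart. Of the elastin receptor complex, Glb1 was 1.80-fold lower on FGFR3Act than on FGFR3WT, Ctsa 1.28-fold higher and Neu1 1.06-fold higher. Of 7 integrin subunits measured, 3 could be compared, and Itgb5 was 1.64-fold lower, Itgb1 1.41-fold higher and Itgav 1.13-fold higher. The Itgav difference was -0.03 after quantile normalisation and near 0 after cyclic loess.

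Factors known to act on elastin transcription or mRNA were also listed. Between FGFR3Act and FGFR3WT, 4.14% of all genes lay 2-fold or more above FGFR3WT and 4.79% below by that size. Of the 14 factors compared, 3 lay above and 1 below by that size. These counts were 1 and 0 when the 60th percentile served as floor, and the count below was also 0 after quantile normalisation and cyclic loess. The median log2 difference was -0.19, and 0.02 with no filter. The AP-1 subunit gene Fosl1, whose product represses elastin transcription downstream of fibroblast growth factor in other cells, read 127 on FGFR3WT, 423 on FGFR3Act and 199 on FGFR3KO. Its partner gene Jun read 286, 689 and 381 in the same order. Both were highest on FGFR3Act, by 3.32-fold and 2.41-fold against FGFR3WT, and the third was the growth factor gene Hbegf at 2.02-fold. Fosl1 on FGFR3WT lay just above the floor of 121, so its fold falls with a higher floor. Tgfb2, a ligand of the family that raises elastin synthesis, was 2.13-fold lower on FGFR3Act, and Tgfb3 was 1.09-fold lower. Also lower were Sp1 by 1.63-fold, Cebpb by 1.55-fold, Rela by 1.48-fold, Egfr by 1.39-fold, Igf1r by 1.38-fold and Sp3 by 1.17-fold. Fos was 1.30-fold higher, and Tnf, which entered through FGFR3Act alone, at least 1.17-fold higher. Of the 14, 5 were higher and 9 lower. The elastin-inducing growth factor gene Igf1 had signals of 1424 on FGFR3WT, 1269 on FGFR3Act and 2716 on FGFR3KO. It was 1.91-fold above FGFR3WT on FGFR3KO, while its second probe set, at 693, 841 and 774, was 1.12-fold above. Of 13 compared on FGFR3KO, 0 lay 2-fold or more above FGFR3WT and 1, Fos, below, by 2.04-fold. Of all genes, 1.93% lay above and 3.61% below by that size. The median of the 13 was 0.15. Whether any of these factors bears on the Eln values was not tested.

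**Figure D4:**
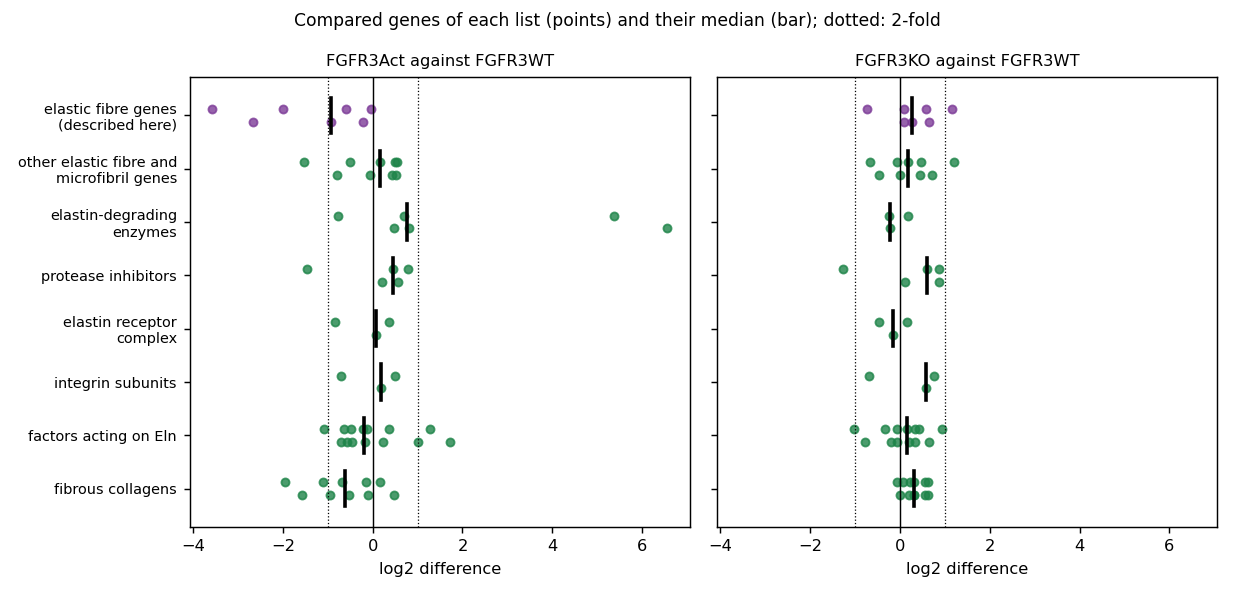
Log2 difference of each compared gene (points) and the median (bar) of the elastic fibre genes and 7 companion lists, for FGFR3Act and FGFR3KO against FGFR3WT, with 2-fold dotted. On FGFR3Act the medians of the elastic fibre genes, -0.94, and of the fibrous collagens, -0.61, are the lowest shown, in an order that turns with the floor at the 60th percentile (-0.60 and -0.69), while the 2 points far to the right are Mmp12 and Ctss.

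**Figure D5:**
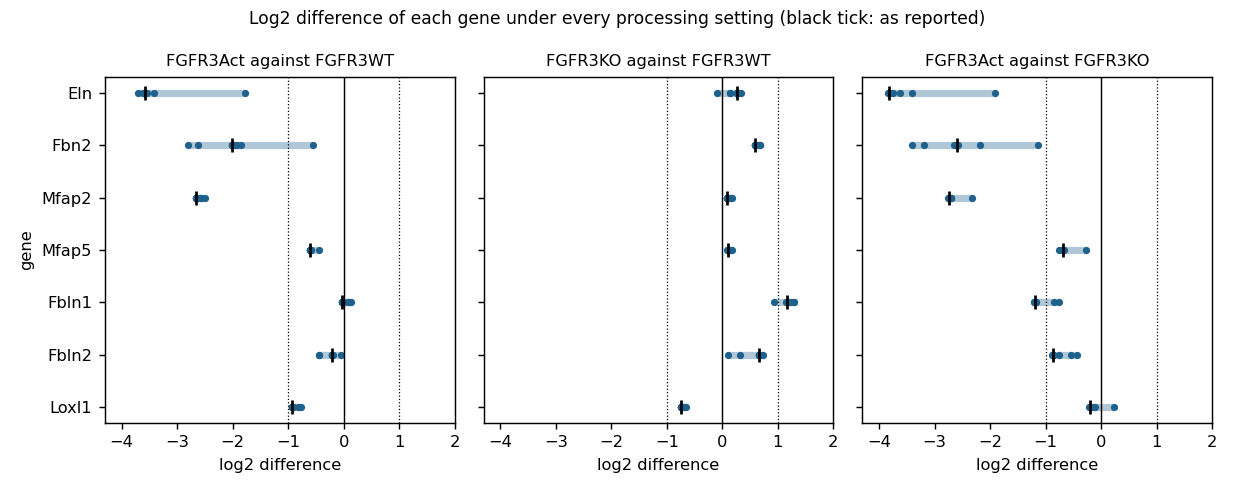
Log2 difference of each elastic fibre gene under the reported processing (black tick) and each alternative (points, with the range as a bar) in the 3 pairs of arrays, with 2-fold dotted. Mfap2 on FGFR3Act stays beyond 2-fold lower throughout, Eln reaches -1.77 against FGFR3WT with the mean over its probe sets, and Fbn2 reaches -0.56 with the highest floor.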

How the data were processed

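Biotin-labelled cRNA of total RNA from 3 fibroblast cultures or groups of cultures was measured on Affymetrix arrays, per the labels. The deposited intensity values are MAS5 signals, per the submitters' processing notes. For its version, scaling target and detection calls, the sources used here give nothing. The arrays' trimmed means of 606 to 614 lie close together, and no further scaling was applied. Of 9889 probe sets, 9053 had exactly 1 symbol in GEO's platform annotation. Of these, 9041 were matched in the RefSeq table of GRCm38.p6, whose symbols were then used. Where a gene had several probe sets, the brightest by mean log2 signal was shown. It entered a pair if above the floor on at least 1 of the 2 arrays. With 1 array a genotype no test was run, and the number of arrays limits the precision. The members, lists and rules for named genes were chosen with earlier results of these data known. Named were all members, up to 4 genes furthest apart in each list and the 5 genes nearest to Eln. Some list members were named beyond this to complete a group, after their values were seen. Alternatives were quantile normalisation, median centring, cyclic loess (limma 3.58.1), 2 other floors, log2 of signal plus 12.0 without a floor, 2 other filters, the mean over probe sets and leaving out _s_ and _x_ probe sets. The arithmetic was tested on simulated arrays.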

Additional observations from a re-analysis of the deposited data

How the results depend on the processing

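No paired analysis was possible because each genotype has 1 array. The settings are compared by direction, by the 2-fold size and by a move of 1.5-fold, since no replicate spread exists. With the mean over probe sets, elastin minus the median of the other members was -1.01 for FGFR3Act against FGFR3WT and -1.05 for FGFR3Act against FGFR3KO, and the count of members at least 2-fold higher on FGFR3KO than on FGFR3WT was 0. In that setting the dim second Eln probe set, at the floor on each array, enters the mean. The median of the members for FGFR3Act against FGFR3KO, -1.19 as reported, was below the 2-fold size with the mean over probe sets (-0.87) and relative to the dermal fibroblast markers (-0.76). The other 127 of 132 alternative values of the medians, counts and elastin gaps kept their side of the 2-fold size and moved by no more than 1.5-fold. Some of the 132 could not do otherwise. No member had an _s_ or _x_ probe set, so leaving these out changed no member value. Every member passed the filter in each pair, so dropping it changed none either. An elastin gap cancels any constant of an array, so median centring and the fibroblast marker setting could not change it. Among the 127 was the count of members at least 2-fold lower on FGFR3Act. Against FGFR3WT it was 2 in place of 3 with the floor at the 60th percentile and with both arrays required above the floor. Against FGFR3KO it was 3, not 4, with both arrays above the floor, with the mean over probe sets and relative to the fibroblast markers. Of the single genes, Fbn2 moved with the floor, Eln and Fbln1 with the mean over probe sets, and Fbln1 in FGFR3Act against FGFR3KO was also below 2-fold relative to the dermal fibroblast markers (-0.76), where Loxl1 had a difference of 0.23. That last setting was chosen after seeing the data. It moved the median of all genes from -0.07 to 0.09 for FGFR3Act against FGFR3WT and from -0.05 to 0.37 for FGFR3Act against FGFR3KO. With both arrays required above the floor, Fbn2 was not compared on FGFR3Act.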
